A study of Mus musculus with 9 samples.

Results

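The genes described here encode the machinery that copies DNA and the machinery that divides the chromosomes. The list holds 47 genes, 15 of replication and 32 of mitosis, and was applied to the 45281 probes of an Illumina mouse BeadChip array, on which biotin-labelled cRNA binds beads that each carry 1 probe sequence. A gene entered when the platform annotation gave its symbol to a probe and that probe had a detection p-value under 0.05 on at least 3 of the 9 arrays. The detection p-value compares a probe's brightness with that of the array's negative control beads. By this rule 36 of the 47 genes were measured, 15 of 15 for replication and 21 of 32 for mitosis, through 57 of the 16415 detected probes. The detected probes carried 9081 gene symbols in all.

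Each array held total RNA of macrophages grown from C57Bl/6 bone marrow with 15% L929-conditioned medium, which supplies M-CSF, the growth factor of this lineage. The 3 groups of 3 arrays differed in what the cells received for 1 h: the TRAF-STOP compound 6877002, the TRAF-STOP compound 6860766, or vehicle. All 9 cultures then received FGK45, an antibody that activates the receptor CD40, at 25 ug/ml for 8 h, so no array shows cells without CD40 activation. TRAF-STOPs were made to block the signal from CD40 through the adaptor TRAF6. No compound dose is given in the labels, which number the mice 1 to 3 in each group without saying whether a mouse served in several groups, so p-values measure the spread between these cultures.

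DNA is copied in S phase, once origins have been loaded with the MCM helicase by CDC6 and CDT1, and chromosomes are divided in M phase by a spindle of microtubules, motor proteins and kinases. Genes of the first kind are switched on by E2F factors around the start of S phase. Genes of the second kind are switched on later, through a promoter element named the cell cycle genes homology region (CHR), which is bound by the MuvB complex with B-MYB and FOXM1. Cultured bone marrow macrophages divide in response to M-CSF, and stimuli that activate them are known to slow or stop that division.

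Between 15271 and 15926 probes, 33.7% to 35.2% of those on the array, were detected on each array. The cultures read as macrophages: all 8 macrophage markers with a probe were detected (Adgre1, Csf1r, Itgam, Lyz2, Fcgr1, Mertk, Cd14 and Mpeg1), and none of the 5 erythroid, 7 lymphoid or 8 fibroblast markers was. The summed level of the 8 macrophage markers was 55792 to 58009 in 6877002 cells, 53975 to 57780 in 6860766 cells and 56104 to 57049 in vehicle cells, on the linear scale of the normalised values. Single macrophage markers did differ. Fcgr1, the high-affinity IgG receptor CD64, was higher in 6877002 cells than in 6860766 cells (0.95 ± 0.098 on the log2 scale, limma adjusted p = 2.47e-06), higher than vehicle with 6877002 (0.40 ± 0.098, adjusted p = 0.0335) and lower than vehicle with 6860766 (-0.55 ± 0.098, adjusted p = 0.00297). Mertk, a receptor for the uptake of dying cells, was higher with 6877002 than with vehicle (0.50 ± 0.11, adjusted p = 0.0205), and the other 6 passed in no comparison. The part of these differences in the results below was not tested. Of 13 markers of myeloid progenitors and neutrophils, 8 were detected and 5 were not (Flt3, Elane, Prtn3, Ctsg and Ms4a3), and none of the 8 passed the test in any comparison. The summed level of these 8 was 2187 to 2478 in 6877002 cells, 2088 to 2384 in 6860766 cells and 2103 to 2431 in vehicle cells on the same scale. S100a8 and S100a9 were the brightest, so the sum says little of dim markers such as Kit. Kit, detected on 4 arrays, and Ngp were higher in 6860766 cells without overlap, by 0.39 and 0.22 from vehicle (limma adjusted p = 0.33 and 0.59). Against 6877002 cells the adjusted p was 0.26 and 0.44. For the rest all groups overlapped. The arrays lay on 4 slides, with the 6877002 arrays on slides 3 and 4, the 6860766 arrays on slides 1 and 3 and the vehicle arrays on slides 1, 2 and 4. Slide and group therefore overlap in part, and values within 1 slide are given beside the results they touch.

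Of the 11 mitosis genes with no measurement, Ccnb1 (cyclin B1) and Mki67 (the Ki-67 antigen) had no probe that the annotation gives to them alone. The other 9, Ccna2, Ccnb2, Bub1, Cenpe, Ttk, Ect2, Racgap1, Ube2c and Hmmr, had probes that were detected on at most 1 array, so they are named without a value. All the measured genes were detected on all 9 arrays except Kif18a, with 3 arrays. For each gene the value below is the deposited log2 level of its probe with the highest mean over the arrays. Levels of different genes come from different probes and are not set against each other. Differences are first group minus second on the log2 scale, with the standard error of the fit (SE, n = 3 arrays per group). A gene counts as changed at a Benjamini-Hochberg adjusted p under 0.05 over all 16415 probes in limma, a linear model whose spread is shared across probes.

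The mitosis genes set the 2 compounds apart. All 21 had a lower mean in 6877002 cells than in 6860766 cells, 10 of them past the threshold, and in 19 of 21 every 6877002 array lay below every 6860766 array. The counts of 21 and 19 include Kif18a, which was not detected in 6877002 cells and met the detection rule only through the other groups. Among all probes, 3.95% passed in this comparison, 3% higher and 0.95% lower, and 11.3% had groups that did not overlap in this direction (9.11% in the other). The median difference of the 21 genes was -0.35, beside -0.018 for all probes. An unadjusted p under 0.05 was found for 17 of the 21, and for 2592 of all 16415 probes. RNA of a whole culture cannot tell fewer dividing cells from less RNA per cell.

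The 10 genes were Kif2c, Cdc20, Kif22, Bub1b, Top2a, Kif23, Aurka, Cenpa, Prc1 and Birc5, with differences from -0.65 (Kif2c, 1.57-fold lower) to -0.31 (Birc5, 1.24-fold lower). The start regions of the 4 with the largest differences are shown because mitosis genes are known to share promoter elements. Each is the RefSeq window on GRCm38.p6 from 250 bases before the annotated start to 50 after it, 5′ to 3′ on the gene's strand. Capitals mark the CHR (TTTGAA or TTCGAA) and the NF-Y box (CCAAT) on either strand, so that TTCAAA and ATTGG are the same elements read from the other strand.
Kif2c, chr4:117178723-117179022, minus strand: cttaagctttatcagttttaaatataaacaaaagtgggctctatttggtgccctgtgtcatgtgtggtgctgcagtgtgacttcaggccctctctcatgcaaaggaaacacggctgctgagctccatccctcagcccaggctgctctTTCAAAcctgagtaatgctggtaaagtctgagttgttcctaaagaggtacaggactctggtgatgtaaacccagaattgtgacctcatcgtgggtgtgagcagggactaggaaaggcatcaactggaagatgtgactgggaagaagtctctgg
Cdc20, chr4:118437294-118437593, minus strand: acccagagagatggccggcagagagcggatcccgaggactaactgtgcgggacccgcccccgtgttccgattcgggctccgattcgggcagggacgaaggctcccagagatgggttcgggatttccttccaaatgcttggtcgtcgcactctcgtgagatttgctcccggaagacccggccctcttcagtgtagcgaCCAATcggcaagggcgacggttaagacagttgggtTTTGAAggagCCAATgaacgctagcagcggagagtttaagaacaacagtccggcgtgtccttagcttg
Kif22, chr7:127042371-127042670, minus strand: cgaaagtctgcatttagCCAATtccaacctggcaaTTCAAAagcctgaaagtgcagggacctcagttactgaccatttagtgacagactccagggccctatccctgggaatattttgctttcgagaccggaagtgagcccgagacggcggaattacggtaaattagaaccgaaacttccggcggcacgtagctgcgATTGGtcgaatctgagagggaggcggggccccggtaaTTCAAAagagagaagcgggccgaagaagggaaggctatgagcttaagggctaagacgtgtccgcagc
Bub1b, chr2:118597961-118598260, plus strand: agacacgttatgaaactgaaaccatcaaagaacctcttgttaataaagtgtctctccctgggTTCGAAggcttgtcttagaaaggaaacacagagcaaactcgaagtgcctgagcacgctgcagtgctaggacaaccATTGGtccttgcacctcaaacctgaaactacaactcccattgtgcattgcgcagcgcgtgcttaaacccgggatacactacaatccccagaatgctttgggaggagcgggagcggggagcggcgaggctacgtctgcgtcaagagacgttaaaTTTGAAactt

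Each of these windows held at least 1 CHR match. The match nearest the start began 103 bases before it in Kif2c, 18 in Cdc20 and 17 in Kif22, and lay after the start in Bub1b. In the whole mitosis list, 26 of 31 windows (29 genes, some with several starts) held a CHR match, or 83.9%, beside 20.0% of 15 replication windows and 19.2% of 32851 mouse windows. For the NF-Y box the shares were 80.6% of mitosis windows, 80.0% of replication windows and 37.4% of all windows. An E2F motif (TTTCCCGC, TTTGGCGC, TTTCGCGC or TTTGCCGC, either strand) was in 9.68% of mitosis windows, 46.7% of replication windows and 2.26% of all windows. Among measured mitosis genes the CHR was in 10 of 11 windows of the 10 that passed and in 7 of 9 windows of the others. No window was at hand for Aurkb, Ccna2, Tpx2, Gins2 and Mcm4. A match is a run of letters and was not tested as a binding site.

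**Figure D1:**
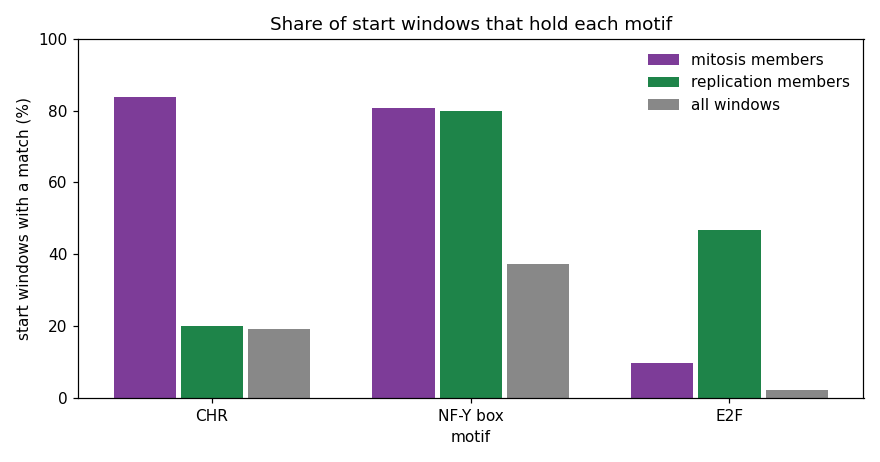
Percent of start windows (300 bases, y axis) that held each motif, for mitosis members (31 windows), replication members (15) and all windows (32851). The CHR was in 83.9% of mitosis windows and 20.0% of replication windows, and the NF-Y box in 80.6% and 80.0%.

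Among the kinases and the checkpoint, Aurka, the kinase of spindle poles, read 8.54, 8.60 and 8.71 in 6877002 cells, 8.99, 9.15 and 8.95 in 6860766 cells and 8.59, 8.64 and 8.79 in vehicle cells. All 6877002 arrays lay below all 6860766 arrays, and they overlapped vehicle. Aurka differed by -0.41 ± 0.087 between the compounds (limma adjusted p = 0.00616) and was 1.28-fold higher in 6860766 cells than in vehicle cells (0.36 ± 0.087, adjusted p = 0.0319). Bub1b, the checkpoint protein BUBR1, which holds back anaphase until chromosomes are attached, read 7.66, 7.68 and 7.85 in 6877002 cells, 8.31, 8.31 and 8.13 in 6860766 cells and 7.90, 7.56 and 7.97 in vehicle cells. Here too the 6860766 arrays stood above both other groups, which overlapped each other. The difference was -0.51 ± 0.11 between the compounds (adjusted p = 0.00742) and 0.44 ± 0.11 between 6860766 and vehicle (adjusted p = 0.0385). A second Bub1b probe, detected on all 9 arrays, passed in neither comparison (-0.29, adjusted p = 0.321, and 0.19, adjusted p = 0.669).

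Cdc20, the activator that lets the anaphase-promoting complex start chromosome separation, read 8.55, 8.51 and 8.60 in 6877002 cells, 9.10, 9.17 and 9.12 in 6860766 cells and 8.81, 8.73 and 8.96 in vehicle cells. The 3 groups did not overlap at all: 6877002 was lowest, vehicle in between and 6860766 highest. The compounds differed by -0.57 ± 0.081, with the smallest adjusted p of the list (0.000122), while the differences of each compound from vehicle, -0.28 ± 0.081 and 0.29 ± 0.081, had adjusted p-values of 0.0696 for 6877002 and 0.0709 for 6860766. The other 3 detected Cdc20 probes gave -0.64, -0.63 and -0.46 between the compounds, and 2 of them passed.

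On the chromosomes themselves, Cenpa, the histone variant that marks centromeres, read 11.31, 11.36 and 11.44 in 6877002 cells, 11.80, 11.78 and 11.61 in 6860766 cells and 11.36, 11.39 and 11.44 in vehicle cells. The 6860766 arrays were above all others, and 6877002 and vehicle overlapped. The difference between the compounds was -0.36 ± 0.067 (adjusted p = 0.00256) and that of 6860766 from vehicle 0.33 ± 0.067 (adjusted p = 0.00932), although a second Cenpa probe gave -0.20 between the compounds with an adjusted p of 0.64. Birc5, the survivin subunit of the chromosomal passenger complex, read 9.21, 9.11 and 9.19 in 6877002 cells, 9.52, 9.54 and 9.40 in 6860766 cells and 9.32, 9.29 and 9.33 in vehicle cells. Its 3 groups did not overlap and stood in the order seen for Cdc20. Birc5 differed by -0.31 ± 0.073 between the compounds (adjusted p = 0.0156), and its other 2 probes gave -0.38 and -0.34.

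Top2a, the topoisomerase that untangles sister chromatids, read 7.79, 7.78 and 7.91 in 6877002 cells, 8.34, 8.54 and 8.03 in 6860766 cells and 8.15, 7.96 and 7.87 in vehicle cells. The compound groups did not overlap, and each of them overlapped vehicle. The difference was -0.48 ± 0.12 (adjusted p = 0.02), and a second Top2a probe, detected on 6 arrays, gave -0.044.

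The spindle motors Kif2c, Kif22 and Kif23 and the microtubule bundler Prc1 were the others that passed. Kif2c, the kinesin MCAK, which takes microtubules apart at centromeres, read 6.95, 6.98 and 7.18 in 6877002 cells, 7.73, 7.80 and 7.52 in 6860766 cells and 7.51, 7.37 and 7.37 in vehicle cells. Its groups did not overlap, with 6877002 lowest and 6860766 highest, and the compounds differed by -0.65 ± 0.11 (adjusted p = 0.000808). Against vehicle Kif2c differed by -0.38 ± 0.11 in 6877002 cells (adjusted p = 0.0714) and 0.27 ± 0.11 in 6860766 cells (adjusted p = 0.297). Kif22, the kinesin KID, which pushes chromosome arms away from the poles, read 8.07, 8.14 and 8.11 in 6877002 cells, 8.69, 8.71 and 8.56 in 6860766 cells and 8.29, 8.22 and 8.38 in vehicle cells. Again no groups overlapped, and vehicle lay between the compounds. Kif22 differed by -0.55 ± 0.085 between the compounds (adjusted p = 0.000335) and by 0.36 ± 0.085 between 6860766 and vehicle (adjusted p = 0.0283).

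Kif23, the motor subunit of centralspindlin, which organises the site of cell cleavage, read 8.97, 8.97 and 8.98 in 6877002 cells, 9.496, 9.52 and 9.22 in 6860766 cells and 9.08, 9.14 and 9.0003 in vehicle cells. No groups overlapped, and the 6877002 arrays lay within 0.02 of each other. The compounds differed by -0.44 ± 0.085 (adjusted p = 0.00321) and 6860766 from vehicle by 0.34 ± 0.085 (adjusted p = 0.0361). The probes of Kif23 disagreed: a second gave -0.53 between the compounds and the last 0.18. Prc1, which bundles the microtubules of the central spindle, read 10.43, 10.42 and 10.63 in 6877002 cells, 10.91, 10.91 and 10.72 in 6860766 cells and 10.67, 10.48 and 10.62 in vehicle cells. The 6860766 arrays were above all others, and Prc1 differed by -0.35 ± 0.079 between the compounds (adjusted p = 0.0108).

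**Figure D2:**
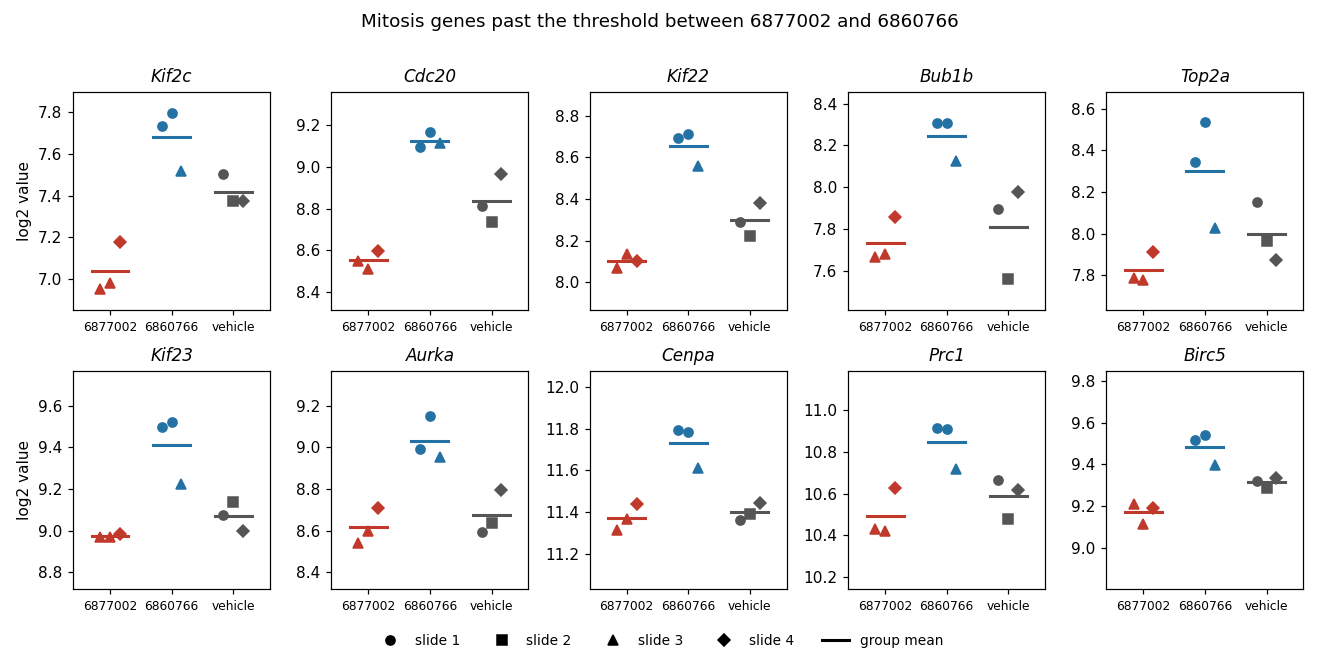
Log2 value of each array (y axis, same span in each panel) for the 10 mitosis genes past the threshold between the compounds, with 6877002, 6860766 and vehicle from left to right, marker shape for slide and a bar for the group mean. In each panel the 3 arrays of 6877002 lie below the 3 of 6860766.

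The other 11 measured mitosis genes did not pass between the compounds, with differences from -0.50 (Kif18b, a kinesin of microtubule ends, adjusted p = 0.0554) to -0.12 (Tpx2, which activates Aurora A on the spindle, adjusted p = 0.651). Their 95% confidence intervals ran from -0.79 to 0.10 in all, and 7 of the 11 intervals lay wholly below 0. Plk1, the polo-like kinase that acts at mitotic entry and on spindle poles, read 8.98, 9.18 and 9.16 in 6877002 cells, 9.44, 9.45 and 9.23 in 6860766 cells and 9.25, 9.003 and 9.30 in vehicle cells. Its compound groups did not overlap, at a difference of -0.26 ± 0.093 (adjusted p = 0.145). Cdk1, the kinase that drives entry into mitosis, read 8.69, 8.93 and 8.86 in 6877002 cells, 9.05, 9.07 and 9.12 in 6860766 cells and 8.80, 8.88 and 8.86 in vehicle cells. It differed by -0.26 ± 0.081 between the compounds (adjusted p = 0.0942), again without overlap.

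Nusap1, which binds microtubules near chromosomes, read 9.17, 9.07 and 9.05 in 6877002 cells, 9.27, 9.19 and 9.42 in 6860766 cells and 9.12, 8.98 and 9.23 in vehicle cells. The lowest 6860766 array stood just above the highest 6877002 array, and the difference was -0.20 ± 0.086 (adjusted p = 0.256). Kif18a, a kinesin that limits chromosome swings, was detected on 0 of 3 6877002 arrays, 1 of 3 6860766 arrays and 2 of 3 vehicle arrays. The measured mean was 4.52 in 6877002 cells, 4.83 in 6860766 cells and 4.98 in vehicle cells. With 6877002 values raised to the dimmest detected signal of their array, vehicle stood at 1.05-fold of 6877002 and 6860766 at 0.946-fold. The vehicle and 6860766 means include arrays without detection, so neither fold is a lower bound. No difference between the compounds is established for this gene. The remaining ones, Aurkb, Tpx2, Kif4, Kif11, Kif15, Kif18b and Kif20b, encode the passenger kinase, a spindle assembly factor and 5 spindle motors, and in Kif11 and Tpx2 the compound groups overlapped.

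Against vehicle, 0 of the 21 mitosis genes passed with 6877002, and 6 had an unadjusted p under 0.05, as did 2551 of all 16415 probes. The median difference was -0.096, beside -0.011 for all probes, 20 of 21 values were negative, and in 9 of 21 every 6877002 array lay below every vehicle array. The counts of 6, 20 and 9 include Kif18a, which was not detected in 6877002 cells and met the detection rule only through the other groups. Of all probes, 2.52% passed in this comparison (1.68% higher, 0.841% lower), and the groups did not overlap in 11.6% downward and 10.7% upward. Among genes detected on all 9 arrays the lowest values were those of Kif2c (-0.38) and Kif18b (-0.33), and the highest that of Kif11, the motor that pushes spindle poles apart (0.026, SE 0.19). The fit called 0 of these genes; 1 passed, lower, when only the 2 groups were fitted, 2 with array weights, 1 with the mean of each gene's probes, and 2 without 6860766 replicate 3, an array that enters only through the shared spread.

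With 6860766, 5 of the 21 mitosis genes rose over vehicle and 0 fell: Aurka, Bub1b, Cenpa, Kif22 and Kif23, by 0.33 (Cenpa) to 0.44 (Bub1b, 1.35-fold). The median difference was 0.24, beside 0.0063 for all probes, with 20 of 21 values positive and 12 of 21 genes with all 6860766 arrays above all vehicle arrays. Among all probes 2.4% passed, 0.865% higher and 1.54% lower, and 7.35% had groups without overlap upward and 7.55% downward. The count of 5 rested on single arrays: it was 0 without 6860766 replicate 2, and 1 without 6860766 replicate 1, vehicle replicate 1 or vehicle replicate 2. It was 2 without 6877002 replicate 2 and 3 without 6877002 replicate 1, which enter only through the shared spread. The comparisons with vehicle share the 3 vehicle arrays, so they are not separate measurements.

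**Figure D3:**
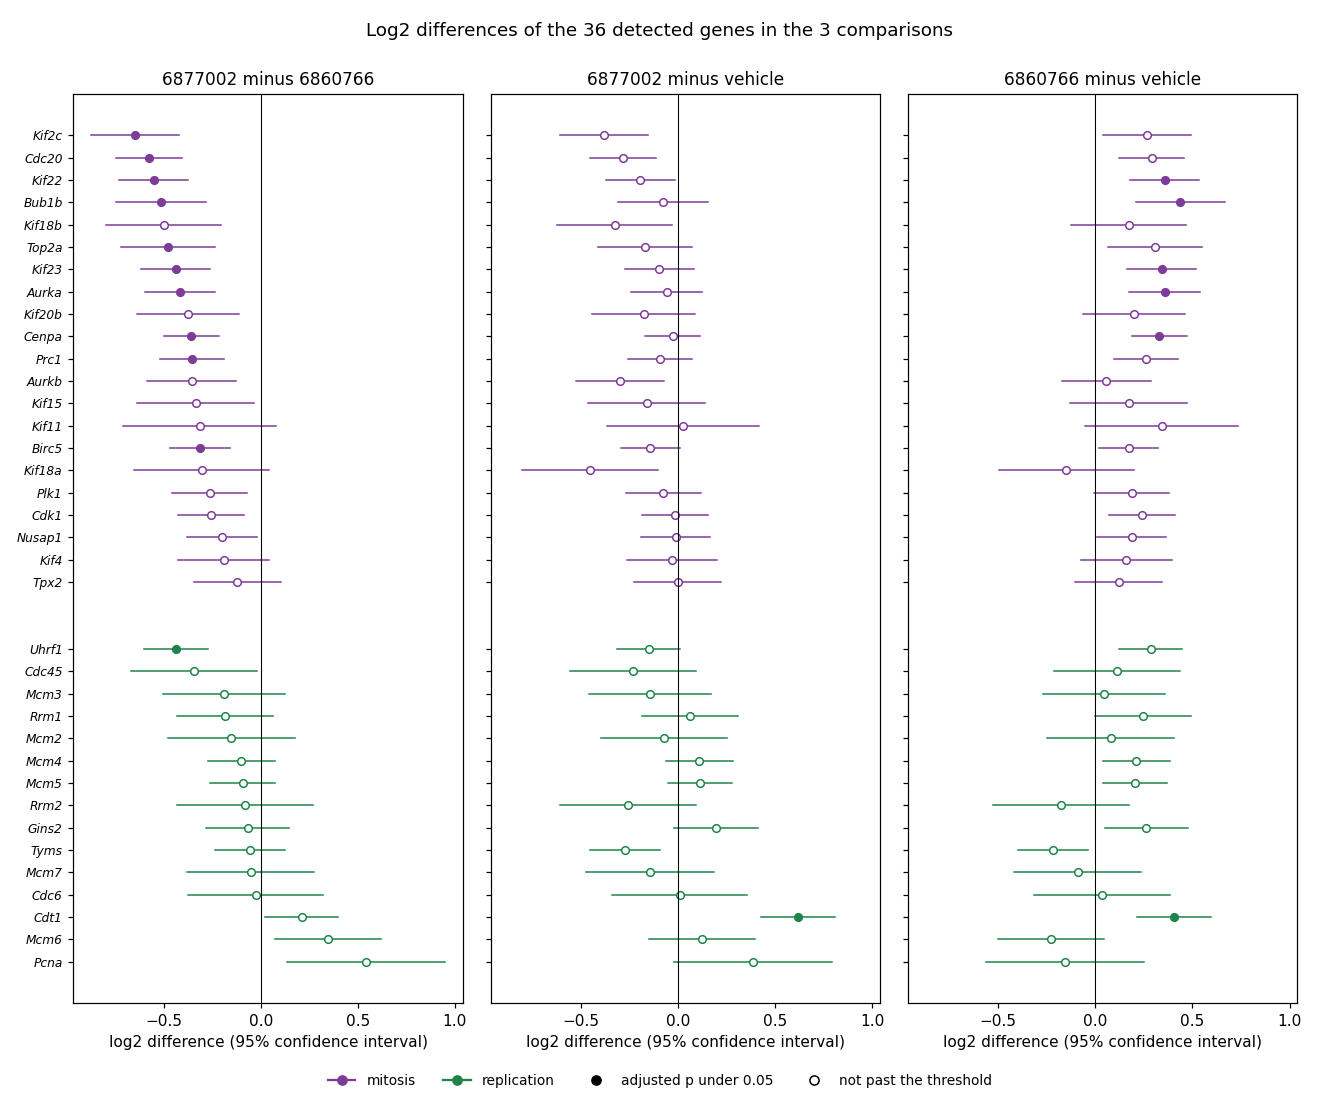
Log2 differences with 95% confidence intervals (x axis) of the 36 measured genes (rows; purple mitosis, green replication) for 6877002 minus 6860766, 6877002 minus vehicle and 6860766 minus vehicle, filled where the adjusted p was under 0.05. Mitosis genes lie left of 0 in the first panel (21 of 21) and mostly right of 0 in the last (20 of 21). The Kif18a value in the first 2 panels is set against a group in which it was not detected.

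The shift stood in each array. With every gene centred on its mean over the 9 arrays, the median of the 21 mitosis genes was -0.23, -0.18 and -0.12 in 6877002 cells, 0.22, 0.28 and 0.093 in 6860766 cells and -0.027, -0.038 and 0.014 in vehicle cells. The 3 groups did not overlap, and the 6860766 array nearest to vehicle was the one on slide 3. Slide 3 held 2 arrays of 6877002 and 1 of 6860766. The median difference there was -0.29, and 20 of 21 genes were lower in 6877002 (8731 of 16415 probes). Within slide 1, with 2 arrays of 6860766 and 1 of vehicle, it was 0.26 with 20 of 21 higher (8473 of 16415 probes). Within slide 4, with 1 array of 6877002 and 1 of vehicle, it was -0.12 with 17 of 21 lower (8343 of 16415 probes). The sign within a slide was fixed for genes whose groups did not overlap, 19 of 21 on slide 3, 12 on slide 1 and 9 on slide 4. The counts on slides 3 and 4 include Kif18a, which was not detected in 6877002 cells and met the detection rule only through the other groups. For the 10 genes that passed between the compounds the differences within slide 3 ran from -0.59 to -0.24, their sign also fixed by the lack of overlap.

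**Figure D4:**
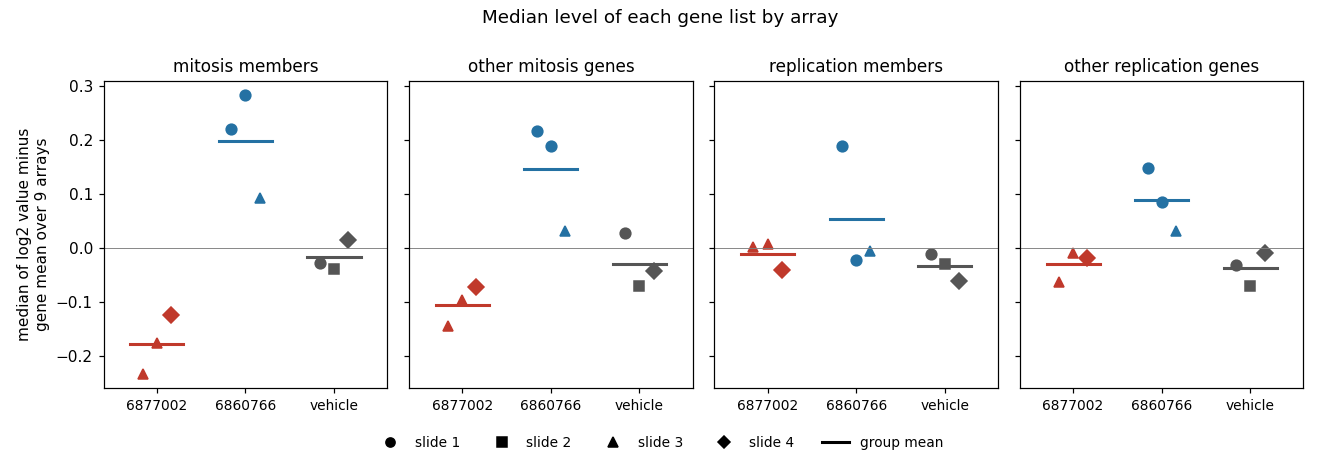
Median over genes of the log2 value minus the gene's mean over 9 arrays (y axis), 1 point per array, for mitosis members, other mitosis genes, replication members and other replication genes, with 6877002, 6860766 and vehicle from left to right, marker shape for slide and a bar for the group mean. Mitosis members sit at -0.23 to -0.12 in 6877002, 0.093 to 0.28 in 6860766 and -0.038 to 0.014 in vehicle, while the replication members of the 3 groups overlap.

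The calls depended in part on single arrays. The 10 mitosis calls between the compounds became 5 without 6877002 replicate 1, 6 without 6877002 replicate 2 and 5 without 6860766 replicate 2, with a range of 5 to 12 over the 9 arrays. Cdc20, Kif22, Kif2c, Cenpa and Kif23 passed whichever of the 9 arrays was left out. The rest did not: Aurka was lost in 2 of the 9 cases (6877002 replicate 1 and 6860766 replicate 2), Bub1b in those and without 6877002 replicate 2, and Top2a, Birc5 and Prc1 in those 3 and without 6860766 replicate 1. With slide as a factor 9 mitosis genes passed. Top2a (limma adjusted p = 0.268) and Birc5 (adjusted p = 0.0755) were lost, and Nusap1, which was not among the 10, entered. Of 14 further detected probes for mitosis genes, 13 had the sign of the gene's main probe between the compounds and 5 passed.

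Of the 15 replication genes, 1 passed in each comparison. Of all probes, 3.95% passed between the compounds, 2.52% with 6877002 against vehicle and 2.4% with 6860766 against vehicle. With 15 genes, 1 call cannot be told from these shares. Between the compounds the gene was Uhrf1, lower with 6877002, and the median difference was -0.080 beside -0.018 for all probes. Cdt1 was the 1 of 15 to pass against vehicle with 6877002 and again with 6860766, higher in both, at medians of 0.0079 (all probes -0.011) and 0.079 (all probes 0.0063). Those 2 calls share the vehicle arrays. An unadjusted limma p under 0.05 was found for 5 of the 15 genes between the compounds, and for 2592 of all 16415 probes. It was found for 2 with 6877002 against vehicle (2551 probes) and 6 with 6860766 against vehicle (1946 probes). With 6860766, 5 of 15 lay above vehicle without overlap and 1 below, beside 7.35% and 7.55% of all probes. Between the compounds the mean was lower with 6877002 in 12 of 15, and in 8978 of all 16415 probes. The array medians were 0.00094, 0.0078 and -0.040 in 6877002 cells, 0.19, -0.022 and -0.0060 in 6860766 cells and -0.011, -0.029 and -0.062 in vehicle cells, so the groups overlapped. Within slides the medians were -0.018 between the compounds on slide 3, -0.015 between 6877002 and vehicle on slide 4 and 0.12 between 6860766 and vehicle on slide 1.

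The windows of the 2 genes that passed are shown because they lack a CHR match and hold an E2F match (capitals, with the NF-Y box CCAAT), the pattern more frequent in replication genes above. The window of Uhrf1 is the 1 of its 2 that holds the E2F match. That match began 32 bases after the start in Cdt1 and 185 bases before it in Uhrf1.
Cdt1, chr8:122567765-122568064, plus strand: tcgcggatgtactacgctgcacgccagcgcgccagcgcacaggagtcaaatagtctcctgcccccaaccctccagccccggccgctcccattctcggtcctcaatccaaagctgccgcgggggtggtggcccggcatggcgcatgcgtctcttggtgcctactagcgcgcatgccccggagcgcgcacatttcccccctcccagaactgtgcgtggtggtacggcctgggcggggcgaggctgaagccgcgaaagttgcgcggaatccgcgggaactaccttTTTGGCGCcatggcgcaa
Uhrf1, chr17:56304063-56304362, plus strand: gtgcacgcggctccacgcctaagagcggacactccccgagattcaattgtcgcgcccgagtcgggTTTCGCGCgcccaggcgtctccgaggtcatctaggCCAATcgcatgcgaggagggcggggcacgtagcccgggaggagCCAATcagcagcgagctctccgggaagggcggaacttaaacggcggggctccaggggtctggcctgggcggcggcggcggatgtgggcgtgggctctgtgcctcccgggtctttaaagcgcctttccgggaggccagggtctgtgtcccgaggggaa

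Cdt1, which loads the MCM helicase onto origins and is destroyed once S phase begins, read 9.32, 9.39 and 9.31 in 6877002 cells, 9.29, 8.93 and 9.18 in 6860766 cells and 8.82, 8.63 and 8.73 in vehicle cells. All arrays of both compounds lay above all vehicle arrays, and every 6877002 array was above every 6860766 array, the nearest by under 0.1. Cdt1 rose 1.53-fold with 6877002 (0.62 ± 0.091, adjusted p = 0.00039) and 1.33-fold with 6860766 (0.41 ± 0.091, adjusted p = 0.0173). The compounds differed from each other by 0.21 ± 0.091 (95% confidence interval 0.021 to 0.40, adjusted p = 0.255), which did not pass. Within slides it was 0.59 higher with 6877002 than with vehicle on slide 4, and 0.28 higher with 6860766 than with vehicle on slide 1. The 6877002 call held whichever array was left out, and with slide as a factor (0.54, adjusted p = 0.0073). The 6860766 call did not hold with slide as a factor (0.32, adjusted p = 0.109), nor without 6860766 replicate 1, vehicle replicate 2 or vehicle replicate 3.

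Uhrf1, which carries DNA methylation over to newly copied strands, read 8.52, 8.52 and 8.43 in 6877002 cells, 8.89, 8.96 and 8.93 in 6860766 cells and 8.60, 8.70 and 8.63 in vehicle cells. The groups did not overlap, with 6877002 lowest and 6860766 highest, the order of the mitosis genes. The compounds differed by -0.44 ± 0.078 (1.35-fold lower with 6877002, adjusted p = 0.00156), by -0.40 within slide 3, and the call held whichever array was left out. Against vehicle Uhrf1 differed by -0.15 ± 0.078 with 6877002 (adjusted p = 0.367) and 0.28 ± 0.078 with 6860766 (adjusted p = 0.0635).

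The 6 MCM subunits, which form the ring-shaped helicase, passed in no comparison. Mcm5 read 9.64, 9.61 and 9.53 in 6877002 cells, 9.78, 9.64 and 9.65 in 6860766 cells and 9.61, 9.36 and 9.48 in vehicle cells. The 6860766 arrays were above vehicle by a margin of under 0.1, and the compounds overlapped. Its differences were 0.11 ± 0.079 (6877002 from vehicle), 0.20 ± 0.079 (6860766 from vehicle) and -0.093 ± 0.079 (between the compounds). Mcm4 read 8.89, 8.99 and 9.08 in 6877002 cells, 9.19, 9.11 and 8.97 in 6860766 cells and 8.85, 8.87 and 8.92 in vehicle cells. It showed the same arrangement, with differences of 0.11 ± 0.082, 0.21 ± 0.082 and -0.10 ± 0.082 in that order. Mcm2, Mcm3 and Mcm7 differed by -0.19 to 0.079 over the 3 comparisons.

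Mcm6 had the second-highest difference between the compounds, 0.35 ± 0.13 (adjusted p = 0.177), from 8.39, 8.37 and 8.21 in 6877002 cells, 7.74, 7.79 and 8.40 in 6860766 cells and 8.21, 8.27 and 8.13 in vehicle cells. Both low 6860766 arrays lay on slide 1, and within slide 3 the compounds differed by -0.014. Its 2 further probes gave -0.014 and 0.20 between the compounds.

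Pcna, the sliding clamp that tethers the polymerases, had the highest difference, 0.54 ± 0.19 (adjusted p = 0.154), from 6.63, 6.74 and 6.82 in 6877002 cells, 6.36, 5.54 and 6.67 in 6860766 cells and 6.27, 6.39 and 6.37 in vehicle cells. One 6860766 array, replicate 2, stood far below the other two, and the 6877002 arrays were above all vehicle arrays (0.39 ± 0.19, adjusted p = 0.349). Within slide 3 the compounds differed by 0.021. Without 6860766 replicate 3, 3 replication genes passed between the compounds in place of 1.

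Of the genes that make DNA building blocks, Tyms (thymidylate synthase) read 8.71, 8.68 and 8.88 in 6877002 cells, 8.90, 8.81 and 8.72 in 6860766 cells and 9.08, 9.09 and 8.92 in vehicle cells. Both compounds lay below vehicle without overlap, and overlapped each other. By the main probes, Tyms had the lowest replication difference from vehicle with 6877002, -0.27 ± 0.086 (limma adjusted p = 0.111). With 6860766 it differed by -0.22 ± 0.086 (adjusted p = 0.275), the second-lowest main probe there after Mcm6 (-0.23 ± 0.13). The ribonucleotide reductase subunits Rrm1 and Rrm2 did not pass by their main probes, with 0.25 ± 0.12 and -0.18 ± 0.17 for 6860766 against vehicle. A second Rrm1 probe was higher there (0.45, limma adjusted p = 0.0335). A second Rrm2 probe, detected on 8 arrays, was lower without overlap with 6877002 than with vehicle (-0.56, adjusted p = 0.105).

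The origin factors Cdc6, Cdc45 and Gins2 did not pass either. Cdc6, which loads MCM together with CDT1, differed by 0.0079 ± 0.17 with 6877002 and 0.034 ± 0.17 with 6860766 from vehicle. Cdc45 and Gins2, which complete the active helicase, differed by -0.34 ± 0.15 and -0.067 ± 0.10 between the compounds. The 95% confidence intervals of the 15 replication genes between the compounds ran from -0.67 to 0.95 in all, and 10 of the 15 intervals held 0.

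**Figure D5:**
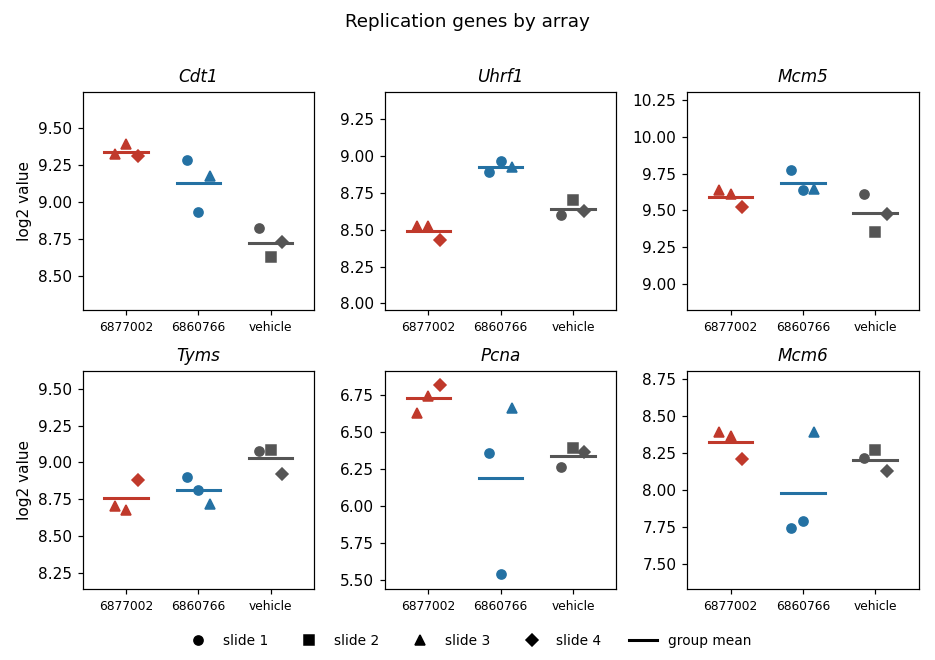
Log2 value of each array (y axis, same span in each panel) for Cdt1, Uhrf1, Mcm5, Tyms, Pcna and Mcm6, with 6877002, 6860766 and vehicle from left to right, marker shape for slide and a bar for the group mean. Cdt1 is above vehicle with both compounds, Uhrf1 is lowest with 6877002 and highest with 6860766, and single 6860766 arrays stand apart in Pcna and Mcm6.

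Genes of the same pathways outside the list were counted next, 42 of 57 other replication genes, 48 of 68 other mitosis genes and 14 of 19 cell cycle regulators of the E2F, MuvB and FOXM1 groups being detected. Between the compounds 5 of the 48 mitosis genes and 2 of the 42 replication genes were lower with 6877002, 1 of the 14 regulators was higher, and the medians were -0.26, -0.083 and -0.18. Of all probes, 0.95% passed lower and 3% higher there, at a median of -0.018. With 6860766 against vehicle, 1 of the 48 and 1 of the 42 were higher, at medians of 0.22 and 0.10, beside 0.865% of all probes and their median of 0.0063. Single calls in sets of this size cannot be told from that share. With 6877002 against vehicle 0 of the 104 passed, at medians of -0.065 and 0.018, beside 2.52% of all probes and their median of -0.011. Of these 104, 17 had an unadjusted p under 0.05 in that comparison, as did 2551 of all 16415 probes, a similar share.

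The mitosis genes lower with 6877002 than with 6860766 were Anln, an actin-binding protein of the cleavage furrow (-0.62 ± 0.11, adjusted p = 0.00105), Troap, a spindle-associated protein (-0.52 ± 0.11, adjusted p = 0.01), the kinesin Kifc1 (-0.46 ± 0.11), Cdca3 (-0.31 ± 0.077) and Cdca8, the borealin subunit of the passenger complex (-0.28 ± 0.077). The replication genes were Pold1, the catalytic subunit of polymerase delta (-0.46 ± 0.096, adjusted p = 0.00583), and the histone chaperone Asf1b (-0.54 ± 0.14). Pold1 read 8.25, 8.34 and 8.37 in 6877002 cells, 8.93, 8.79 and 8.63 in 6860766 cells and 8.43, 8.20 and 8.45 in vehicle cells, so only 6860766 stood apart, and it was also higher than vehicle (0.42 ± 0.096, adjusted p = 0.0207), as was Cdca3 (0.31 ± 0.077, adjusted p = 0.0363). Rbl1, the pocket protein p107, which represses E2F genes, went the other way (0.44 ± 0.11, adjusted p = 0.0332). Of these 8 genes, Anln, Troap and Pold1 passed between the compounds with slide as a factor, and the other 5 did not. Anln passed whichever array was left out, Pold1 in all but 1 case (6877002 replicate 1), and the others in 2 (Cdca8) to 7 (Troap) of 9 cases.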

How the data were processed

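Per the file headers, 1 deposited table holds bead-summary intensity values, not normalised between arrays, with a detection p-value per probe and array. The authors' second deposited table holds normalised log2 values, for which the submitters' processing notes list GenomeStudio 2011.1, limma 3.22.7 and R 3.1.3 without naming a function. Values recomputed here from the intensities with limma's neqc (offset 16) differed from them by at most 0.016, so the scale is log2 after background correction and quantile normalisation. The deposited log2 values of all 9 arrays were fitted in R 4.3.3 with limma 3.58.1 (lmFit, eBayes with trend, two-sided) over the 16415 probes with detection p under 0.05 on at least 3 arrays, tested on simulated data. The annotation gave 1 symbol to 34885 probes, several to 18 and none to 10378, and probes of the last 2 kinds were not named.

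Groups follow the sample titles. Array-wise values are given for every member past the threshold and for the 3 members of each set with the highest mean among the rest, and of other genes for at most 8 (differences, with array-wise values for Pold1). Array-wise values of Mcm6 and Pcna, the highest differences between the compounds among replication genes, were added after their values were seen. The members and lists were chosen with earlier results of these data known. Alternatives were the normalisation, the filter, the choice of probe, the variance model, slide and mouse number as terms, and leaving out arrays. The number of arrays limits the precision.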

Additional observations from a re-analysis of the deposited data

How the results depend on the processing

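No gene past the threshold changed sign under any alternative, while the replication medians against vehicle, near 0, did. Of the 700 values of the 28 gene results named as past the threshold, 503 stayed past it, 197 did not, and 3 results passed under all 25 alternatives: Cdc20 and Kif22 between the compounds and Cdt1 with 6877002 against vehicle. Uhrf1 and Kif2c between the compounds passed in 24, missing only without mouse 2. The cause of the changes below was not tested.

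For 6877002 against 6860766, the 10 mitosis calls became 4 without the variance trend, 3 without mouse 1 and 2 without mouse 2, and 5 to 12 leaving out single arrays. The 1 replication call became 3 with array weights, 0 without mouse 2, 3 without mouse 3, and 1 to 3 leaving out single arrays. The 8 calls among other genes became 5 with no filter, 3 without the trend, 24 with array weights, 3 with slide as a factor, 0 without mouse 1, 0 without mouse 2, 24 without mouse 3, and 1 to 20 leaving out single arrays. The mitosis median of -0.35 became -0.23 without background correction and -0.47 without mouse 3, and the replication median -0.16 without mouse 3.

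For 6860766 against vehicle, the 5 mitosis calls became 1 with no filter, 2 with the mean of a gene's probes, 0 without the trend, 1 with only the 2 groups fitted, 0 without mouse 1, 0 without mouse 2, 2 without mouse 3, and 0 to 7 leaving out single arrays. The 1 replication call became 2 with the mean of probes or slide as a random block, 0 without the trend, with only the 2 groups, with slide as a factor or without mouse 1, and 0 to 2 leaving out single arrays. The 2 calls among other genes became 1 with median scaling or the mean of probes, 0 with no filter, without the trend or with only the 2 groups, 4 with 1 feature per gene, array weights, the random slide block or without mouse 3, 5 with slide as a factor, 0 without mouse 1 or 2, and 0 to 8 leaving out single arrays. The mitosis median of 0.24 became 0.16 without background correction. The replication median of 0.079 became -0.054 without mouse 1, 0.16 without mouse 3, and 0.000064 to 0.17 leaving out single arrays.

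For 6877002 against vehicle, the 0 mitosis calls became 1 with the mean of probes or only the 2 groups, 2 with array weights or without mouse 3, and 0 to 2 leaving out single arrays. The 1 replication call became 2 with array weights. The 0 calls among other genes became 1 with array weights or only the 2 groups, 2 without mouse 3, and 0 to 1 leaving out single arrays. The replication median became 0.093 without mouse 1, and the mitosis median of -0.096 became -0.22 without mouse 3 and -0.16 to -0.094 leaving out single arrays.

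Arrays with the same mouse number did not deviate together (correlations -0.14 to 0.15, 1 of 9 over 0.1), so the numbers were not taken to pair the samples. With mouse number as a replicate block the 2 calls among other genes for 6860766 against vehicle became 1, Kif23 and Cdca3 were lost there, and the 11 member calls between the compounds all passed.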
